A study of Mus musculus with 24 samples.

Results

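In all, 10 genes of the outer adrenal gland were followed in adrenal glands and neuroblastoma tumors of mice. They were chosen by name from what is known of adrenal zonation, at a time when earlier results of these data were known. All 10 were found among the 21833 protein-coding genes measured. The adrenal capsule is a thin layer of mesenchymal cells around the steroid-producing cortex. Cells of the outer cortex, the zona glomerulosa, secrete Sonic hedgehog, which is received by capsule cells that express Gli1. Capsule cells in turn secrete R-spondin 3, which raises Wnt/β-catenin signaling in the zona glomerulosa, where Wnt4 is made. This loop keeps the outer zone in place and supplies new cortical cells.

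RNA-seq libraries of poly(A) RNA were available for 24 samples in 4 groups. AG were adrenal glands of mice without Cre (CRE -, n = 3). AGM were tumor-free adrenal glands of MYCN +/-, CRE + mice (n = 5). TI were neuroblastoma tumors of IGF2BP1, CRE + mice (n = 8), of which 1 was IGF2BP1 +/- and 7 were IGF2BP1 +/+. TIM were neuroblastoma tumors of IMP1/MYCN, CRE + mice (n = 8), where IMP1 is another name of IGF2BP1. Both transgenes sat in the Rosa26 locus behind a stop cassette and were switched on by iCRE driven by the Dbh promoter, which is active in the sympatho-adrenal lineage. The capsule and the cortex are not of that lineage. The AG mice carried no Cre, and their ages were not given in the labels. By the paper, the MYCN mice were culled at a later age than most mice with tumors. Tumors were labelled as tumor, tumor adrenal gland or tumor spine, so the tumors were not all taken from the gland. Libraries are named here by group and a letter, which only names a column of the table.

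Levels are given as FPKM, in which fragment counts are divided by gene length and by a scaled library size, after a batch correction by the authors. Apart from 126 genes that passed 1000 FPKM in any library, each library held 12334076 to 23683176 recovered reads. In these libraries 1 FPKM stood for 74.7 to 133 reads per kilobase, counted as recovered after the batch correction. Values far below 1 FPKM rested on few reads, such as 2 reads of Rspo3 over the 8 TIM libraries. As a check of the labels, Nr5a1, the master regulator of steroid-producing cells, stood at 7.96 ± 0.329 FPKM in AG (SD, n = 3) and 51.7 ± 5.34 FPKM in AGM (SD, n = 5), and at no more than 0.130 FPKM in any tumor. Several markers that an adrenal gland should hold were nearly absent from AG. Cyp11b2, the aldosterone synthase of the zona glomerulosa, had 25 reads in the 3 AG libraries together, against 388086 in the 5 AGM libraries. Nr0b1, a cortical nuclear receptor, had 8 reads in AG and 109903 in AGM. All AG samples were sequenced in run 1 and all AGM samples in run 2, so run, the batch correction made over the runs and genotype cannot be told apart in AGM vs AG. The labels give no age for AG, so a difference in age cannot be set apart either. The limit of run and batch correction holds in particular for genes at nearly 0 in AG and high in AGM, such as Cyp11b2, Nr0b1 and Wt1. AG and TIM shared no run either, whereas 6 of the 8 TI samples were of run 1.

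The members lie on 7 chromosomes of GRCm39, the build of the table (UCSC mm39). Among the ligands, Wnt4 spans chr4:137004373-137027037, Rspo3 chr10:29327285-29411876 and Shh chr5:28661813-28672254. Among the receptors and inhibitors, Ptch1 spans chr13:63656142-63721412 and Znrf3 chr11:5226324-5394939. Among the targets, Axin2 spans chr11:108811169-108841609, Lef1 chr3:130903919-131018005 and Gli1 chr10:127165751-127177865. Of the capsule transcription factors, Tcf21 spans chr10:22692803-22696073 and Nr2f2 chr7:70001692-70016519.

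Among the members, the targets Lef1 and Gli1 were higher and Znrf3 and Ptch1 lower in AGM than in AG (below). The promoters of these 4 genes are shown for that reason. Axin2, a further Wnt target, was not called. Each window holds 250 bases before and 50 bases after the start of the canonical GENCODE M39 transcript, read 5′ to 3′ on the strand of the gene. Lef1 is at chr3:130903669-130903968 (+), Znrf3 at chr11:5394890-5395189 (-), Gli1 at chr10:127177816-127178115 (-) and Ptch1 at chr13:63714043-63714342 (-). Capitals mark a match to a searched motif.
Lef1: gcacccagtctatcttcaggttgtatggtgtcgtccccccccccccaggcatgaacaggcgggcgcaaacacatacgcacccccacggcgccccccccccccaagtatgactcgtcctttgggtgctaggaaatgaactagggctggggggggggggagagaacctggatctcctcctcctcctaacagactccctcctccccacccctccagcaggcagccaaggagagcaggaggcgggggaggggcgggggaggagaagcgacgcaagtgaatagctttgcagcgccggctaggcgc
Znrf3: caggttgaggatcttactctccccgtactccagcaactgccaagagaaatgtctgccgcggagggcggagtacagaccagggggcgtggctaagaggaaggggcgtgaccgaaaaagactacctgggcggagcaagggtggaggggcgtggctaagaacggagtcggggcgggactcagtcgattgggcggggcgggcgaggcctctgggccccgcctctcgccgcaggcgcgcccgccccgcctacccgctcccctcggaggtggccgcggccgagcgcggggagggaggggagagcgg
Gli1: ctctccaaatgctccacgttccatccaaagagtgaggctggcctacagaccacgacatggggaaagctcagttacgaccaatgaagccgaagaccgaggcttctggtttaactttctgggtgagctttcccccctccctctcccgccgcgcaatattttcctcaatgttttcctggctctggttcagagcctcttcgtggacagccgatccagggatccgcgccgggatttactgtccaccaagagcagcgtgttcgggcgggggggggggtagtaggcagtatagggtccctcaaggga
Ptch1: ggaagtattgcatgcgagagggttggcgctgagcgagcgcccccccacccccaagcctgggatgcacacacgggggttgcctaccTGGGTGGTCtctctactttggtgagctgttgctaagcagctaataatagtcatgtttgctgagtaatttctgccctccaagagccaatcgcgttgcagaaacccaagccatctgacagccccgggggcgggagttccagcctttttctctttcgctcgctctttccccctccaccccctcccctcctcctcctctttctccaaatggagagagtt
The GLI motif GACCACCCA was found on the minus strand of the Ptch1 window, starting 165 bases before the start site. It was in 44 of 21687 promoters of the same length (0.203%). The TCF/LEF letters CTTTGAT, in 3.38% of all promoters, were in none of the 10 members, and CTTTGTT, in 5.62%, was only in that of Nr2f2. The letters CAAGGTCA, bound by Nr5a1, were in 1.58% of promoters and in no member. Both strands were searched. A match describes letters only, and none of the Gli1, Lef1 and Znrf3 windows held a match.

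The first comparison asks how the outer gland genes differed with the MYCN transgene, in the absence of tumors (AGM vs AG). Tcf21, Wnt4 and Rspo3 were higher in AGM, and so were the targets Lef1 and Gli1. Znrf3 and Ptch1, which restrain Wnt and hedgehog signaling, were lower. No difference was called for Shh, Axin2 or Nr2f2.

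Tcf21, a basic helix-loop-helix factor of capsule and other mesenchymal cells, was at 0.532, 0.518 and 0.570 FPKM in AG. It was at 4.21, 4.0, 4.70, 3.40 and 3.47 FPKM in AGM. The groups did not overlap, and the mean was 7.33-fold higher in AGM (log2 fold change of FPKM + 1 1.68, SE 0.08, limma FDR 1.29e-14). Wnt4, the Wnt ligand of the zona glomerulosa, was at 14.2, 12.3 and 12.6 FPKM in AG and at 47.9, 28.0, 64.3, 33.5 and 41.7 FPKM in AGM. It was the most abundant member and 3.30-fold higher in AGM (log2 fold change 1.60, SE 0.16, limma FDR 3.42e-08), again without overlap. Rspo3, which clears the inhibitor Znrf3 from the cell surface, was at 1.39, 1.37 and 1.36 FPKM in AG. It was at 2.52, 3.45, 2.69, 3.09 and 1.80 FPKM in AGM, which was 1.98-fold higher without overlap (log2 fold change 0.63, SE 0.09, limma FDR 2.12e-05). With limma-voom on the recovered reads, Rspo3 was no longer called (0.46, FDR 0.112).

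**Figure D1:**
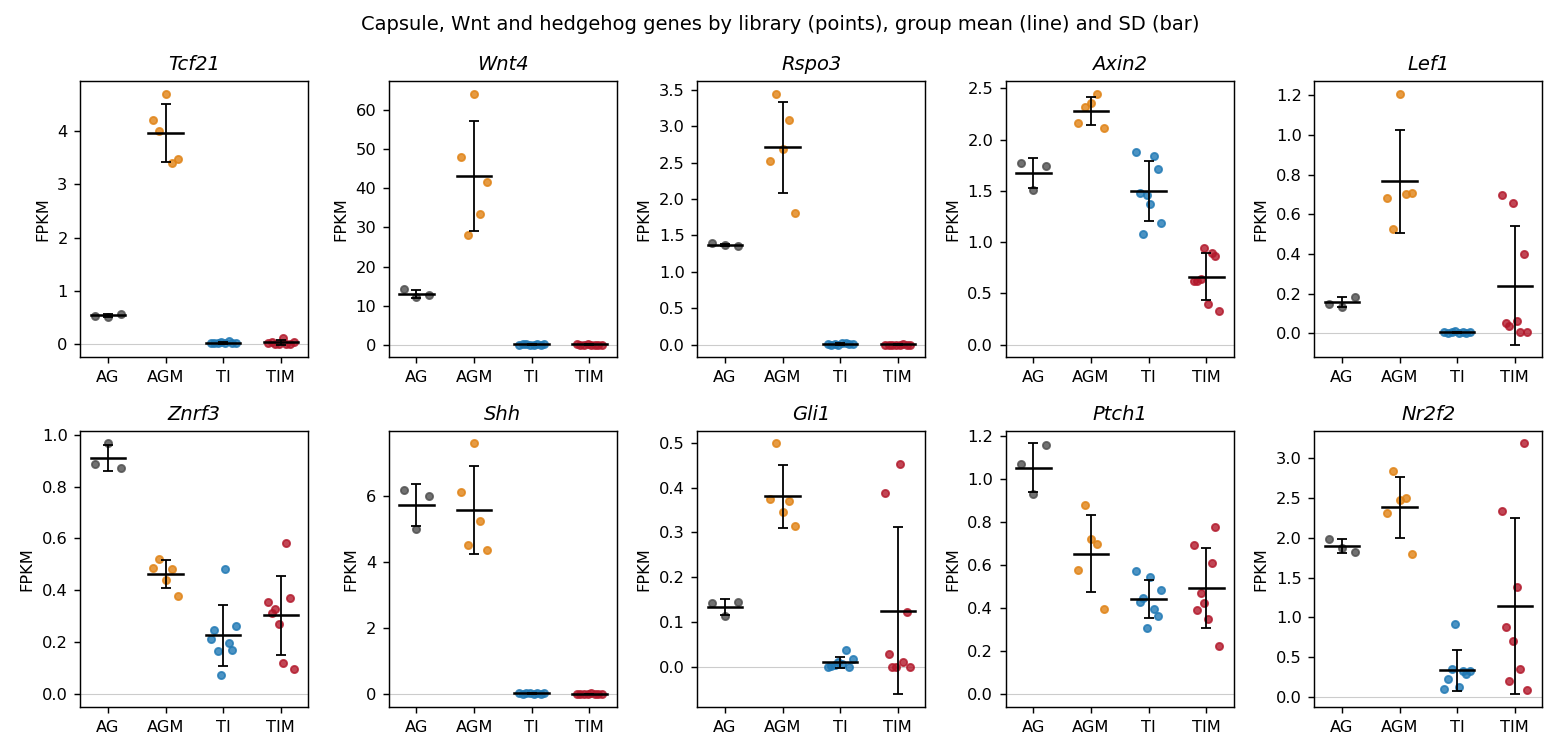
FPKM (linear axis, its own scale for each gene) of the 10 members in 3 AG, 5 AGM, 8 TI and 8 TIM libraries. Points are libraries, horizontal lines are means and bars are SDs. Tcf21, Wnt4, Rspo3 and Shh sit near 0 in both tumor groups, and Lef1, Gli1 and Nr2f2 scatter widely in TIM.

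Shh, the hedgehog ligand of the outer cortex, was at 6.16, 4.98 and 5.99 FPKM in AG and at 6.11, 4.50, 7.58, 5.22 and 4.36 FPKM in AGM. The groups overlapped, and the interval of the difference reached from -0.27 to 0.17 on the log2 scale (limma FDR 0.763). After rescaling each library by its reads outside the 126 high genes, Shh was called lower in AGM (-0.44, limma FDR 0.0138). Axin2, a feedback inhibitor and common readout of β-catenin activity, was at 1.77, 1.51 and 1.74 FPKM in AG and at 2.11 to 2.45 FPKM in AGM. Its groups did not overlap, but the difference of 0.29 (SE 0.12) missed the threshold (limma FDR 0.0771). It was called when only AG and AGM set the spread (limma FDR 0.00374), and it turned to -0.01 after rescaling and to -0.03 with limma-voom. Nr2f2, the nuclear receptor COUP-TFII of capsule and other mesenchymal cells, was at 1.99, 1.87 and 1.82 FPKM in AG. It was at 2.31, 2.84, 2.47, 2.50 and 1.80 FPKM in AGM, with overlap and no call (log2 fold change 0.22, SE 0.31, limma FDR 0.643).

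The other 4 members stayed below the filter of the fit, at least 1 FPKM in 3 libraries, and were compared by two-sided exact permutation tests of the mean FPKM. Lef1, a transcription factor that works with β-catenin and is itself a target, was at 0.150, 0.134 and 0.184 FPKM in AG and at 0.681, 0.527, 1.21, 0.703 and 0.708 FPKM in AGM. All 5 AGM libraries were above all AG libraries, 4.91-fold in the mean (exact p = 0.0179, adjusted over 6 contrasts 0.0214). Gli1, a hedgehog target, was at 0.142, 0.112 and 0.145 FPKM in AG and at 0.375, 0.499, 0.347, 0.370 and 0.313 FPKM in AGM. It was 2.86-fold higher without overlap (exact p = 0.0179, adjusted 0.0268), but not past the threshold after rescaling (exact adjusted p 0.0641).

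Znrf3, a ubiquitin ligase that removes Wnt receptors and is itself a Wnt target, went the other way. It was at 0.888, 0.966 and 0.873 FPKM in AG and at 0.487, 0.520, 0.442, 0.484 and 0.378 FPKM in AGM, 1.97-fold lower without overlap (exact p = 0.0179, adjusted 0.0268). Ptch1, the hedgehog receptor and a target of the pathway, was at 1.07, 0.933 and 1.16 FPKM in AG. It was at 0.578, 0.880, 0.722, 0.698 and 0.395 FPKM in AGM, 1.61-fold lower without overlap (exact p = 0.0179, adjusted 0.0268). Thus the hedgehog targets Gli1 and Ptch1 differed in opposite directions, as did the Wnt targets Lef1 and Znrf3. Axin2, a further Wnt target, was not called. Hhip, a hedgehog target outside the members, is given below and was not tested. An exact p of 0.0179 is the smallest that 3 against 5 libraries allow. With any 1 library left out, Gli1 differed by 0.218 to 0.265 FPKM and Ptch1 by -0.459 to -0.334 FPKM, and neither passed (exact adjusted p 0.0571 to 0.0714 and 0.0571 to 0.143).

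Of all 10171 genes in the fit, 14.6% were called higher and 14% lower in AGM, against 3 of 6 members higher and 0 lower. Tcf21 entered the fit only through AGM libraries, so it had to differ, and the count carries no weight of its own. The deposited scaling matters in this comparison. Rescaling shifted the median log2 fold change of all genes to -0.27 and turned 1488 higher and 1420 lower genes into 896 and 3596. Tcf21, Wnt4 and Rspo3 stayed higher and Znrf3 and Ptch1 lower after it. The capsule and stroma list, 12 genes of capsule and fibroblast cells of which 11 were tested, did not move in 1 direction. Wt1, a regulator of the coelomic lineage that forms the capsule and gonads, had 3 reads in all AG libraries and 5.50 to 29.0 FPKM in AGM, where the batch correction and genotype cannot be told apart. Thy1 rose by 1.79 on the log2 scale. Lum and Dcn, matrix proteoglycans of fibroblasts, fell by 1.43 and 1.37, and Pdgfra, a receptor of mesenchymal cells, had means of 1.82 FPKM in AG and 0.569 FPKM in AGM. The summed level of the list was 38.3 to 43.2 FPKM in AG and 47.9 to 77.4 FPKM in AGM. Markers of neighboring tissues moved as well. Of 5 adipocyte markers 3 rose in AGM, among them Plin1, a lipid droplet protein, by 3.02 and Lep, the hormone leptin, by 6.80, while Adipoq, the hormone adiponectin, had means of 66.3 FPKM in AG and 45.8 FPKM in AGM. The adipocyte sums overlapped, at 69.8 to 660 FPKM in AG and 289 to 1160 FPKM in AGM. Pancreas acinar markers summed to 2.16 to 2.50 FPKM in AG and 28350 to 428300 FPKM in AGM, and 2 of 5 tested rose. These sums rested on single enzyme genes. Cpb1 had 55199389 reads in AGM, whereas Cpa1 and Pnlip, defining markers of the same cells, had 1 and 2 reads. Such sums were not limited to AGM, since they ranged from 0.419 to 3586000 FPKM in TIM, against 0.218 to 3.40 FPKM in TI. The part of tissue composition, dissection and the batch correction in the AGM values was not tested. In bulk tissue, fewer cells of a type and less RNA per cell cannot be told apart.

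The second comparison asks what was left of these genes in the tumors. Wnt4, Shh, Rspo3 and Tcf21 were close to absent from both tumor groups. Axin2, Ptch1 and Znrf3 were still measured in every tumor. Lef1, Gli1 and Nr2f2 were low in TI and uneven in TIM.

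Wnt4 had a lowest, median and highest value of 0.0157, 0.0335 and 0.136 FPKM in TI and of 0.00255, 0.0214 and 0.127 FPKM in TIM. The mean was 284-fold lower in TI and 340-fold lower in TIM than in AG (log2 fold changes -3.75 and -3.76, SE 0.14, limma FDR 7.60e-16 and 7.35e-16). Shh had 0, 0.0232 and 0.0491 FPKM in TI, 249-fold below AG in the mean (log2 fold change -2.71, SE 0.10, limma FDR 2.40e-16). In TIM it had 12 reads in 8 libraries together and a highest value of 0.0270 FPKM (log2 fold change -2.73, limma FDR 2.11e-16). Both secreted signals of the outer cortex were thus at or near 0 in all 16 tumors.

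Rspo3 had 0, 0.00756 and 0.0278 FPKM in TI, or 26 reads in all. In TIM it was listed at 0 in 7 of 8 libraries, and the other held 2 reads. The log2 fold changes against AG were -1.23 and -1.24 (SE 0.09, limma FDR 4.04e-11 and 3.34e-11). Tcf21 had 0.0133, 0.0269 and 0.0646 FPKM in TI and 0, 0.0158 and 0.122 FPKM in TIM. Its mean was 17.9-fold lower in TI and 16.9-fold lower in TIM than in AG (log2 fold change -0.58 in both, SE 0.07, limma FDR 2.91e-07 and 3.12e-07). The small log2 values of Rspo3 and Tcf21 reflect the added 1 FPKM, since both were low in AG already. In each of these genes every tumor was below every AG library.

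Nr2f2 had 0.102, 0.302 and 0.916 FPKM in TI, 5.73-fold below AG without overlap (log2 fold change -1.14, SE 0.29, limma FDR 0.00205). In TIM it had 0.0794, 0.784 and 3.19 FPKM, which overlapped AG (-0.59, limma FDR 0.0922). It was called lower in TIM without TIM-a (-0.70, limma FDR 0.0360) or without TIM-g (-0.75, limma FDR 0.0131), and after rescaling (-0.71, limma FDR 0.0476).

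**Figure D2:**
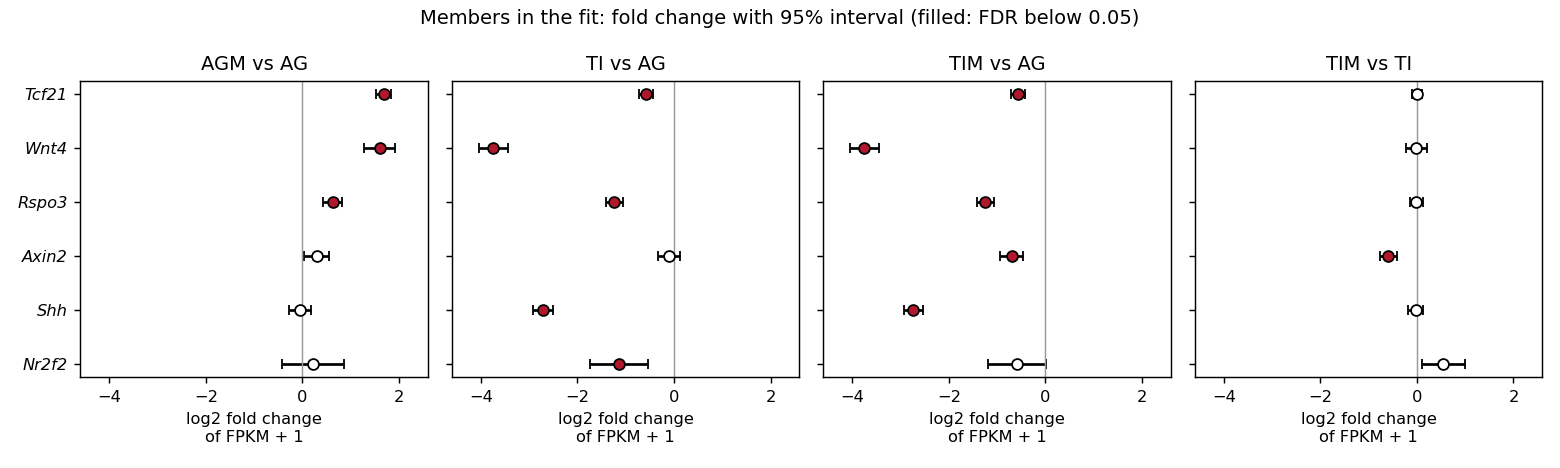
Log2 fold change of FPKM + 1 with its 95% interval for the 6 members in the fit, in 4 comparisons; filled points passed an FDR of 0.05. Wnt4 and Shh lie far below 0 in both tumor comparisons with AG, and Axin2 is the 1 filled point in TIM vs TI.

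Axin2 had 1.08, 1.47 and 1.88 FPKM in TI and overlapped AG (log2 fold change -0.10, interval -0.34 to 0.13, limma FDR 0.485). In TIM it had 0.324, 0.633 and 0.945 FPKM, below every AG library and 2.52-fold lower in the mean (log2 fold change -0.70, SE 0.11, limma FDR 2.30e-05). Znrf3 had 0.0733, 0.206 and 0.481 FPKM in TI and 0.0981, 0.320 and 0.581 FPKM in TIM. It was 4.0-fold and 2.98-fold below AG, with no tumor overlapping AG (exact p = 0.00606, adjusted 0.0121 in both). Ptch1 had 0.306, 0.438 and 0.574 FPKM in TI and 0.225, 0.448 and 0.780 FPKM in TIM, or 2.38-fold and 2.14-fold below AG (exact p = 0.00606, adjusted 0.0182 in both). Ptch1 and Znrf3 were thus lower than in AG but still measured in every tumor.

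Lef1 had 0, 0.00443 and 0.0115 FPKM in TI, 34.9-fold below AG (exact p = 0.00606, adjusted 0.0121). In TIM it had 0.00639, 0.0580 and 0.697 FPKM, with 3 libraries above and 5 below all of AG (exact adjusted p 0.709). Gli1 had 0, 0.00435 and 0.0380 FPKM in TI, 14.4-fold below AG (exact p = 0.00606, adjusted 0.0182). In TIM it had 0, 0.0195 and 0.453 FPKM, with 2 libraries above and 5 below all of AG (exact adjusted p 0.952). In limma fits with the looser filters, neither Lef1 (-0.20, FDR 0.248 and 0.288) nor Gli1 (-0.17, FDR 0.136 and 0.158) was called lower in TI than in AG.

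Of the 6 members in the fit, 5 were called lower in TI and 5 in TIM, and 0 higher. Of all genes, 27.7% were called lower and 24.6% higher in TI, and 28.5% lower and 22.5% higher in TIM. Tcf21, Wnt4, Rspo3 and Shh reached 1 FPKM only in gland libraries, so lower values in tumors follow from the filter. Both comparisons share the AG libraries. The median log2 fold change of the 6 members was -1.19 in TI and -0.97 in TIM, beside -0.002 and -0.005 for all genes. RNA of cortical markers was low in the tumors. In AG the 7 cortex markers summed to 398 to 407 FPKM, whereas the sums were 1.11 to 11.7 FPKM among TI and 2.07 to 8.23 FPKM among TIM. Of these markers 6 of 7 were lower in each tumor group, and the median of Nr5a1 was 0.00108 FPKM in TI and 0.00131 FPKM in TIM. Nr5a1 too passed the filter only through glands. The summed capsule and stroma level ranged from 13.2 to 138 FPKM over TI and from 29.8 to 158 FPKM over TIM, around the AG range given above. Within it Col1a1 rose in both tumor groups (1.55 and 1.64), whereas Dcn fell by 2.40 and 2.24 and Lum by 1.99 and 1.96. Their part in the members' values was not tested.

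Against AGM, all 6 members in the fit were lower in both tumor groups. Tcf21, Wnt4, Rspo3 and Shh reached 1 FPKM only in gland libraries, so their lower values in tumors follow from the filter here too. On the scale of log2(FPKM + 1), which compresses low genes such as Rspo3, Wnt4 differed most, by -5.35 in TIM and -5.34 in TI (SE 0.12, limma FDR 6.50e-21 and 6.80e-21). Tcf21 followed Shh in size, with -2.26 in both for Tcf21 (SE 0.06) and -2.68 and -2.66 for Shh (SE 0.08). Nr2f2 was lower by -0.81 in TIM (limma FDR 0.00596) and -1.36 in TI (limma FDR 3.43e-05). Axin2 was lower by -0.99 in TIM (limma FDR 7.04e-09) and -0.40 in TI (limma FDR 0.000853), the latter lost after rescaling (-0.10, limma FDR 0.408). Of all genes, 33.4% were lower and 31.9% higher in TIM, and 36.2% were lower and 36.2% higher in TI. Among the members below the filter, Lef1 and Gli1 were lower than AGM in TI (exact adjusted p 0.0042 and 0.00466) and in TIM (0.0152 and 0.0268), although that of Gli1 in TIM was lost without 11 of 13 libraries. Znrf3 and Ptch1 were lower in TI (exact adjusted p 0.0121 and 0.0268) but not called in TIM (0.0578 and 0.185). After rescaling, the calls of Lef1 and Gli1 in TIM and those of Znrf3 and Ptch1 in TI did not pass (exact adjusted p 0.0513, 0.0641, 0.131 and 0.825). Age also differed between AGM and most tumors, and its part was not tested.

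The third comparison asks which of these genes differed between IGF2BP1 tumors with and without the MYCN transgene (TIM vs TI). The labels give no copy number of IGF2BP1 in TIM, whereas 7 of 8 TI were IGF2BP1 +/+. By the paper, genotyping of the IGF2BP1/MYCN mice found each transgene and no wildtype Rosa26 locus. As the transgenes share that locus, TIM mice by genotype held fewer copies of IGF2BP1 than the IGF2BP1 +/+ mice of TI. Of the samples, 6 of 8 TI and no TIM were of run 1. MYCN, IGF2BP1 dose, tumor site, age and run cannot be told apart here. By the paper, IGF2BP1 tumors lay mostly in the lower abdomen. IGF2BP1/MYCN mice often had tumors of the adrenal gland or along the spine, and they survived for a shorter time. Axin2 was lower in TIM, and Lef1 was higher by the exact test but not in a fit across genes. No TIM library reached the lowest TI library for Axin2, and the mean was 2.26-fold lower (log2 fold change -0.59, SE 0.08, limma FDR 7.69e-05). The value stayed between -0.63 and -0.55 when any single tumor was left out. Of all genes, 12.9% were lower and 10% higher in TIM, and of the 6 members 1 was lower and 0 higher. On the log2 scale of FPKM + 1, Wnt4 and Rspo3 differed by -0.01, Shh by -0.02 and Tcf21 by 0.00, within intervals that stayed inside -0.23 to 0.21. The added 1 FPKM holds such low genes near 0. In reads over the 8 TI and the 8 TIM libraries, Wnt4 had 160 and 148, Tcf21 59 and 56, Shh 55 and 12, and Rspo3 26 and 2. With limma-voom on the reads the differences were -0.96, -0.98, -2.16 and -2.05 in that order, none past the threshold (limma FDR 0.493, 0.447, 0.238 and 0.217). Nr2f2 was higher in TIM by 0.55 (SE 0.21) but missed the threshold (limma FDR 0.0657), and it was called without TI-d (0.63, FDR 0.0380), TIM-c (0.65, FDR 0.0295), TIM-f (0.62, FDR 0.0375) or TIM-h (0.67, FDR 0.0197).

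Lef1 was above every TI library in 6 of 8 TIM libraries (exact p = 0.0014, adjusted 0.0042). It was 0.697 FPKM in TIM-a, 0.655 in TIM-d and 0.401 in TIM-g, and at most 0.0625 FPKM in the others. In limma fits that let Lef1 in, with no filter or with a filter of 0.1 FPKM, it was higher by 0.27 but not called (FDR 0.0804 and 0.0638). The exact test was lost without any 1 of the 8 TI libraries (exact adjusted p 0.0692 to 0.0705), where the difference itself stayed at 0.235 to 0.237 FPKM. Gli1 was uneven too, at 0.453 FPKM in TIM-e, 0.387 in TIM-a, 0.122 in TIM-g and at most 0.0279 FPKM in the others (exact adjusted p 0.14 against TI). Nr2f2 was highest in TIM-g (3.19 FPKM), TIM-a (2.34) and TIM-e (1.38). TIM-a and TIM-e were also the libraries with the highest summed level of 4 Schwann cell markers, 11.9 and 20.01 FPKM against 0.360 to 2.59 FPKM in the others. Among these markers Sox10, the regulator of Schwann cells and their precursors, reached 15.3 FPKM in TIM against a mean of 0.118 FPKM in TI. The summed capsule and stroma level was 103 FPKM in TIM-a and 158 FPKM in TIM-e, and 29.8 to 81.8 FPKM in the other 6. TIM-d, high in Lef1, had 0.507 FPKM of Schwann markers and no Gli1. Adipocyte markers were highest in the same libraries, at 14.0 FPKM in TIM-a and 48.4 FPKM in TIM-e against 0.0377 to 6.16 FPKM in the others. The part of Schwann, stromal or fat cells in these values was not tested. Znrf3 and Ptch1 did not pass in TIM vs TI, with differences of 0.0776 and 0.0501 FPKM (exact adjusted p 0.275 and 0.506).

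**Figure D3:**
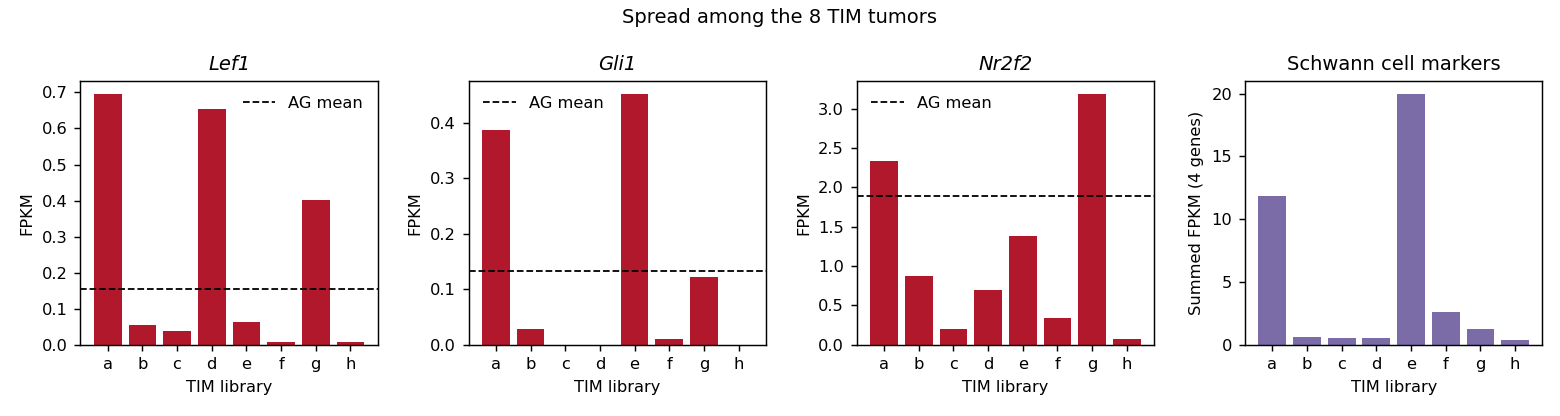
FPKM of Lef1, Gli1 and Nr2f2 in the 8 TIM libraries (bars, linear axes from 0), with the AG mean as a dashed line, and the summed FPKM of 4 Schwann cell markers. Libraries a, d and g are high in Lef1, a and e in Gli1 and in Schwann markers, and a and g in Nr2f2.

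Other genes of the pathways were counted from lists. Of 18 further Wnt ligands 2 were tested, and Wnt5a fell by 1.01 in TI and 0.92 in TIM against AG, with no ligand called in AGM vs AG. Against AG, 27.7% of all genes were lower and 24.6% higher in TI, 28.5% and 22.5% in TIM, and 14% and 14.6% in AGM, and the counts of these short lists stand beside those shares. Of 9 tested Wnt receptors and co-receptors, 8 fell in TI and 8 in TIM. Fzd8, a Frizzled receptor, fell by 1.42 and 1.27 on the log2 scale, and Lrp5, a co-receptor, fell by 1.24 in TI. In AGM 4 of the 9 fell, with Ryk at -0.98 and Fzd2 at -0.65, and Lrp5 rose by 0.52, a call lost after rescaling. The R-spondin receptor Lgr4 fell by 1.17 in AGM, 2.20 in TI and 2.13 in TIM, while Lgr5 rose by 0.79 in AGM. The 2 tested genes of this list thus differed in opposite directions in AGM.

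Among 6 tested secreted Wnt inhibitors, 2 rose and 2 fell in AGM, 4 fell in TI, and 3 fell and 1 rose in TIM. Notum, which inactivates Wnt proteins and is a β-catenin target, was singled out after its values were seen. It had 3 reads in all AG libraries and 18530 to 143800 FPKM in AGM, a level far above that of any other gene of the list, and no more than 0.202 FPKM in any tumor. As for Cyp11b2, run, batch correction and genotype cannot be told apart. Frzb, which binds Wnt proteins, was the most abundant of those with values under 1000 FPKM in AG, with a mean of 31.4 FPKM. It fell by 1.05 in AGM, 4.88 in TI and 4.92 in TIM. Sfrp2, a Wnt-binding inhibitor, rose by 1.64 in TIM, a call lost with limma-voom although the fold was larger (5.17, FDR 0.0751). Of 14 tested genes of the β-catenin core, 3 fell and 3 rose in TI, and 3 fell and 1 rose in TIM. Ctnnb1, which encodes β-catenin, fell by 0.86 in AGM, 1.5 in TI and 1.48 in TIM. Apc2, a member of the destruction complex enriched in neurons, rose by 2.43 and 2.31 in TI and TIM, and Tcf7 fell by 1.59 and 1.57. The β-catenin targets split as well. Of 7 tested, 3 rose and 1 fell in AGM, 3 fell and 1 rose in TI, and 3 fell and 0 rose in TIM. The 3 that rose in AGM were Notum, Cyp11b2 and Lgr5, and Notum and Cyp11b2 were nearly absent from AG. Notum is also 1 of the 2 secreted inhibitors counted as higher in AGM, and Cyp11b2 is counted again among the zona glomerulosa markers. Nkd1, a feedback inhibitor, fell by 2.00 and 1.83, and Dab2, a zona glomerulosa marker, by 3.50 and 3.52. Ccnd1, a cyclin that other pathways induce too, rose by 1.96 in TI.

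**Figure D4:**
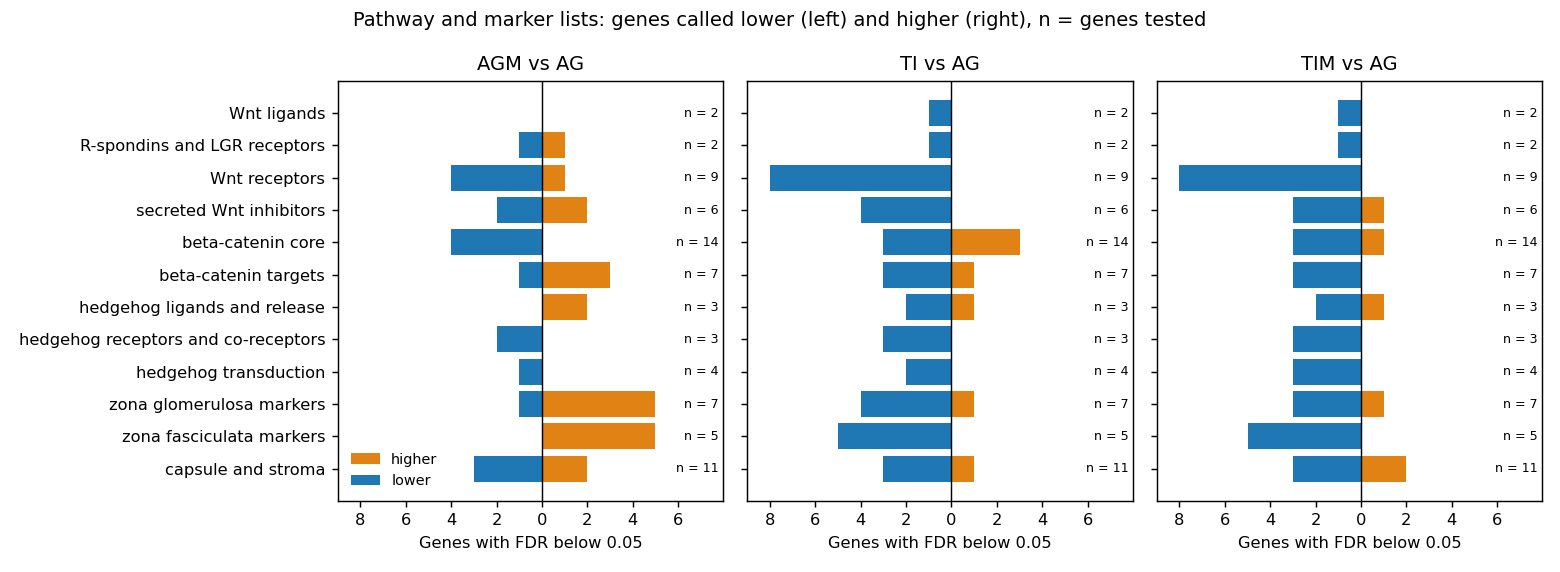
Number of genes with a limma FDR below 0.05 that were lower (left of 0) or higher (right of 0) than in AG, for 12 lists and 3 comparisons; n is the number of genes tested. In TI and TIM, 8 of 9 Wnt receptors and 3 of 3 hedgehog receptors and co-receptors were lower. For genes that passed the filter mainly through glands, such as Boc and Smo, this follows largely from the filter.

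In the hedgehog pathway, 3 of 3 tested receptors and co-receptors fell in TI and in TIM. Boc, a co-receptor that binds Shh, had means of 6.51 FPKM in AG, 4.56 in AGM, 0.0467 in TI and 0.128 in TIM (log2 fold changes -0.43, -2.84 and -2.75). Smo, the signal transducer, had means of 3.50, 1.95, 0.118 and 0.311 FPKM (-0.61, -2.01 and -1.80). With means below 1 FPKM in both tumor groups, Boc and Smo passed the filter mainly through glands. Their lower values in tumors follow largely from that filter. Ligand release differed within itself. Disp2 rose by 1.83 in AGM, 2.11 in TI and 2.57 in TIM, while Disp1, which releases hedgehog proteins from the cell, fell by 0.48 in TI and 0.62 in TIM. Of 4 tested transduction genes, 2 fell in TI and 3 in TIM, and Evc2, of the ciliary complex that works with Smo, fell by 0.84 and 0.61. In TIM vs TI, Evc2 rose by 0.23 and Spop, an adaptor that marks GLI proteins for degradation, fell by 0.56. After rescaling Evc2 was nearly as much higher (0.20) but not called (limma FDR 0.0614). Hhip, a hedgehog-binding inhibitor and pathway target below the filter, had means of 0.483 FPKM in AG, 0.0320 in AGM, 0.201 in TI and 0.0456 in TIM. Gli2 and Gli3, the other GLI factors, had means of no more than 0.149 FPKM in any group.

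Zonation markers were counted beside them. Of 7 tested zona glomerulosa markers, 5 rose and 1 fell in AGM, where Agtr1a, the angiotensin receptor, rose by 2.25 and Dab2 fell by 0.60. After rescaling 3 rose. Cyp11b2, nearly absent from AG, was among those counted as higher. All 5 zona fasciculata markers rose in AGM, among them Mc2r, the ACTH receptor, by 3.27 and its partner Mrap by 3.70. In TI and TIM, 5 of 5 zona fasciculata markers fell. Their summed level had a median of 342 FPKM in AG, 0.113 FPKM in TI and 0.402 FPKM in TIM. They passed the filter mainly through glands, so this fall follows largely from the filter. In the zona glomerulosa list 4 of 7 fell in TI and 3 of 7 in TIM, beside 27.7% and 28.5% of all genes, with Kcnk3, a potassium channel, at -5.10 and -4.84, and Kcnk9, a related channel, rose by 1.18 and 1.73. So most tested cortical markers of both zones were higher in AGM along with Wnt4 and Tcf21, and no change was called for Shh. After rescaling, 3 of 7 zona glomerulosa markers were higher and Shh was called lower (-0.44, limma FDR 0.0138). Run, batch correction and genotype cannot be told apart here.

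The genes most like each member across the 24 libraries were found by Pearson's r of log2(FPKM + 1) over 10071 genes. These r values mostly express the gap between glands and tumors and are given as a description. Closest to Wnt4 were Mapk13 (0.999), Akr1cl (0.997) and Il10rb (0.995). Closest to Shh were Soat1, a cholesterol esterifying enzyme (0.997), and the homeobox genes Hoxb7 (0.997) and Hoxb8 (0.996). Closest to Tcf21 were Gna14 (0.995), Edn3 (0.995) and Bcan (0.992), and among those closest to Rspo3 were Fgfr2 (0.994) and Klhl14 (0.994). Axin2 had no neighbor above 0.848 (Anks3, then Stat2 and Mfsd12 at 0.846 and 0.826), and that of Nr2f2 was Igfbp5 (0.924), before Grb10 (0.909) and Npepl1 (0.89).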

How the data were processed

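Poly(A)-enriched, strand-specific RNA-seq was analyzed in 24 mouse samples. The authors trimmed reads with cutadapt 2.8, aligned them with HISAT2 2.1.0 to mm39, counted with featureCounts 2.0.0, corrected a batch effect with ComBat-seq and used TMM factors of edgeR 3.40. Their deposited table gave FPKM and a length for each of 21833 protein-coding genes. The authors' fold change, p-value and FDR columns for AGM, TI and TIM against AG were not used. Columns were assigned to groups by name. They carry no sample number, so run, zygosity and tumor site of a column were not used. Whether the samples came from separate animals is not stated in the labels, so p-values measure the spread between these samples.

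FPKM times length was a whole multiple of 1 step per column (tolerance 0.01 reads) for 100.0% of values, which returned reads after the authors' correction. They ranged from 12468968 to 1170004708 per library, and statements on reads cover counting error only. Limma 3.58.1 (lmFit, eBayes with trend, R 4.3.3) used log2(FPKM + 1) for the 10171 genes that reached 1 FPKM in 3 or more of 24 libraries. All groups shared 1 estimate of the spread. P-values were adjusted by Benjamini-Hochberg over the 10171 genes in each of 6 contrasts, with a threshold of 0.05. The log2 scale with 1 FPKM added understates changes of low genes. Of the 10 members, 4 were below the filter and had two-sided exact permutation tests of the mean FPKM, adjusted over 6 contrasts. On data simulated over 10071 genes 93.5% (AGM vs AG), 98% (TIM vs AGM) and 98% (TI vs AGM) of 200 genes changed by 2 on the log2 scale were recovered.

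Alternatives were other filters, a pseudocount of 0.1, a spread from the 2 groups, rescaling, limma-voom and leaving out each library. The members and lists were chosen with earlier results of these data known. Besides the members, the text names at most 2 genes a direction from each list and contrast, the largest called changes among genes under 1000 FPKM, up to 3 genes most like each member and defining cell type markers. Some genes that this rule names are not reported here. Hhip, Gli2, Gli3, Pdgfra and Notum were named after their values were seen. Positions and promoters came from GRCm39 with GENCODE M39, with 21687 genes matched.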

Additional observations from a re-analysis of the deposited data

Results flagged for a closer look

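In 5 of 30 tests over members and groups, 1 library stood apart from the others of its group by Dixon's test. Its chance rate of about 1 in 20 holds for normally spread values, not for groups with few reads. With 1 library above 0, Rspo3 in TIM had to be flagged. The count is therefore not compared with chance. Tcf21 in TIM was highest at 0.122 FPKM, in TIM-e. Wnt4 in TI was highest at 0.136 FPKM and Gli1 in TI at 0.0380 FPKM, both in TI-f. Rspo3 in TIM had 1 library above 0, at 0.00719 FPKM, in TIM-f. Nr2f2 in TI was highest at 0.916 FPKM, in TI-d. TI-f also held the highest Tcf21 value of its group and the highest summed cortex markers, 11.7 FPKM against 1.11 to 3.43 FPKM in the other TI libraries, and zona fasciculata markers, 9.88 FPKM against at most 2.41 FPKM. The part of cortical RNA in these values was not tested.

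The change from AG differed between the tumor groups for Axin2 and Lef1. Axin2 was lower in TIM than in TI by -0.59 on the log2 scale (limma FDR 7.69e-05), in 8 of 8 libraries. The part of copy number on chromosome 11 was not tested. Lef1 was higher in TIM than in TI by 0.236 FPKM (exact adjusted p 0.0042), with 6 of 8 libraries above all of TI.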

How the results depend on the processing

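In AGM vs AG 3 members were called, and 7 with no filter or with a filter of 0.1 FPKM. Those filters let in Lef1, Gli1, Znrf3 and Ptch1. Of all genes, 1988 were then higher and 2121 lower of 18862 with no filter. With 0.1 FPKM these were 2022 and 1977 of 15238. After rescaling 5 of 7 members were called, 3 higher and 2 lower, beside 896 higher and 3596 lower of 10330 genes. In TI vs AGM 6 were called, and 10, all lower, with the filter of 0.1 FPKM. Of all 15238 genes, 4950 were then higher and 5325 lower. Leaving out 1 library gave 3 to 3 calls in AGM vs AG, 5 to 5 in TI vs AG, 5 to 6 in TIM vs AG, 1 to 2 in TIM vs TI, 6 to 6 in TIM vs AGM and 6 to 6 in TI vs AGM. A filter of 1 FPKM in every library left no member to test. Signs turned only where no difference was called. For Tcf21 in TIM vs TI this was -0.0204 with the pseudocount of 0.1, -0.0053 after rescaling and -0.98 with limma-voom, and -0.016 to 0.0085 without 1 library. For Wnt4 in TIM vs TI it was -0.028 to 0.0063 and for Shh in AGM vs AG -0.15 to 0.015 without 1 library. For AGM vs AG it was -0.014 and -0.032 for Axin2 and -0.093 and -0.16 for Nr2f2, after rescaling and with limma-voom. Gli1 in TIM vs AG moved between -0.0547 and 0.01004 FPKM without 1 library. Rescaling changes all genes by construction, and the cause of the other changes was not tested.

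Without any 1 AG library, the exact tests of AGM vs AG gave adjusted p of 0.0571 to 0.143, where 2 against 5 libraries have few regroupings. Gli1 and Ptch1 in AGM vs AG were also lost without any 1 AGM library (0.0571 to 0.0857), with differences of 0.218 to 0.265 and -0.459 to -0.334 FPKM. The call of Gli1 in TIM vs AGM was lost without 11 of 13 libraries, that of Ptch1 in TI vs AGM without AGM-b, AGM-c or AGM-d (0.0646 to 0.0727), and Znrf3 in TIM vs AGM was called without TIM-f (0.0117). Nr2f2 in TIM vs AG was called with limma-voom (FDR 0.049). Between the tumor groups Rspo3 and Shh rested on 2 to 55 reads a group, which leaves wide counting error. No paired analysis was possible because the columns carry no sample number and the replicate numbers of the labels could not be tied to them.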
